A study of Mus musculus with 24 samples.

Results

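Trimethylation of lysine 36 on histone H3 (H3K36me3) was compared in NOS1+ N1E115 cells, a mouse neuroblastoma line whose label names neuronal nitric oxide synthase, after 3 days at 4% O2 (called hypoxia in the labels) and after 3 days at 20% O2 (called normoxia). The members were the 4 H3K36me3 libraries among the 24 samples of the series, 2 at 4% O2 and 2 at 20% O2, chosen by antibody and oxygen label. The labels give brain as tissue and neuroblast as cell type, carry no agent other than oxygen, and name no separate cultures behind the 2 libraries per oxygen level, so that p-values measure only a spread between libraries that may be technical. All cells belonged to 1 line, and in bulk chromatin more cells with the mark and more mark per cell cannot be told apart. Replicate 1 holds the libraries set against input 3, and replicate 2 those titled as repeats and set against input 6.

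H3K36me3 is laid down by SETD2, which travels with elongating RNA polymerase II, so that the mark lies over the bodies of transcribed genes, is low at the promoter and climbs toward the end of the gene. NSD enzymes supply the dimethyl state, KDM4 demethylases, which are oxygen-consuming dioxygenases, remove methyl groups from this lysine, and reader proteins such as MRG15 (Morf4l1), LEDGF (Psip1) and DNMT3B bind it. In low oxygen, hypoxia-inducible factors bind sites with the core ACGTG or GCGTG and switch on genes for glucose uptake, glycolysis and oxygen sensing.

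The deposited files list islands, which are runs of 200 bp windows enriched over input, with a whole number per island read here as its ChIP reads. The 4% libraries held 15581212 and 15349603 reads in islands, and the 20% libraries 25048785 and 13350093, so the deepest and the shallowest library were both at 20% O2. Per the file headers, both replicate 2 libraries shared a flow cell, whereas in replicate 1 the 4% and the 20% library were on different flow cells, where oxygen and flow cell cannot be told apart. The noradrenergic genes Th, Dbh, Phox2a, Isl1, Chga and Chgb were covered over at least 76.5% of their bodies in all 4 libraries, while Insm1 was at 0 in both 4% libraries and Slc6a2 and Ddc were at 0 in all. Of the markers of other cell types, 12 of 17 glial, 14 of 17 immune, 7 of 14 endothelial and 15 of 17 liver and muscle genes had no covered base in any library, Gfap, Ptprc, Cdh5 and Alb among them.

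The mark covered slightly less of the genome at 4% O2. Islands spanned 311.0 and 331.1 Mb in the 4% libraries, against 331.0 and 349.2 Mb in the 20% libraries, a mean of 321.0 ± 14.2 Mb against 340.1 ± 12.8 Mb (SD, n = 2 each). The ratio of 4% to 20% O2 was 0.939 in replicate 1 and 0.948 in replicate 2, although the groups overlapped (two-sided exact permutation p = 0.667). The number of islands was 17535 and 20757 at 4% O2 and 18266 and 20804 at 20% O2, and it followed the replicate more than oxygen. Protein-coding genes held 92.1% and 91.7% of the covered bases at 4% O2 and 91.7% and 91.2% at 20% O2. Of the 394.0 Mb covered in any library, 67.7% was covered in all 4. A further 0.830% was covered in both 4% libraries and neither 20% library, and 2.41% in both 20% libraries and neither 4% library. By replicate, 1.11% was covered in both replicate 1 libraries alone and 3.14% in both replicate 2 libraries alone, so the territory that separated the oxygen levels was no larger than that which separated the replicates.

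Along the gene, the mean covered share at 4% O2 was higher in the first of 10 equal parts of the body and lower from the third part on and beyond its end. This was measured in 3985 genes of at least 10 kb that overlapped no other protein-coding gene and had a known strand, each taken with 5 kb on either side. An island was present in 3973 and 3932 of them in the 4% libraries and in 3981 and 3985 in the 20% libraries. The set thus holds marked genes, and its cover is not that of long genes at large. The first part was covered over 50.8% and 49.5% of its length in the 4% libraries, against 46.2% and 46.6% in the 20% libraries. Both 4% values lay above both 20% values, with means of 50.2% ± 0.917 and 46.4% ± 0.330 (SD, n = 2 each; two-sided exact permutation p = 0.33, the smallest that 2 against 2 libraries allow). Gene by gene, 943 were more covered there at 4% O2 in both replicates and 272 less covered in both.

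The median distance from the start of the gene to the first covered base was 1112 and 1249 bp at 4% O2, against 1368 and 1384 bp at 20% O2. The islands thus began nearer to the start in both 4% libraries, and of 3916 genes with an island in all 4 libraries 1145 had it nearer at 4% O2 in both replicates and 359 farther (two-sided exact permutation p = 0.33 for the medians). In the second part the levels met, at 80.5% and 81.6% in the 4% libraries and 80.7% and 81.4% in the 20% libraries. In the eighth part they had crossed, with 93.1% and 91.7% at 4% O2 and 95.1% and 96.0% at 20% O2. There 58 genes were more covered at 4% O2 in both replicates and 178 less. In the third part, where the mean was also lower, these counts were nearly equal at 186 and 188.

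The last part was covered over 91.0% and 88.4% at 4% O2, against 93.5% and 94.7% at 20% O2, a mean of 89.7% ± 1.81 against 94.1% ± 0.888 (SD, n = 2 each; two-sided exact permutation p = 0.33). The 5 kb past the end, where transcription runs on beyond the cleavage site of the transcript, was covered over 57.8% and 59.9% at 4% O2, against 62.6% and 66.6% at 20% O2. There 319 genes were more covered at 4% O2 in both replicates and 831 less covered, and the groups did not overlap. The 5 kb before the start did not separate the groups, at 16.9% and 17.0% for 4% O2 and 16.8% and 18.0% for 20% O2.

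**Figure D1:**
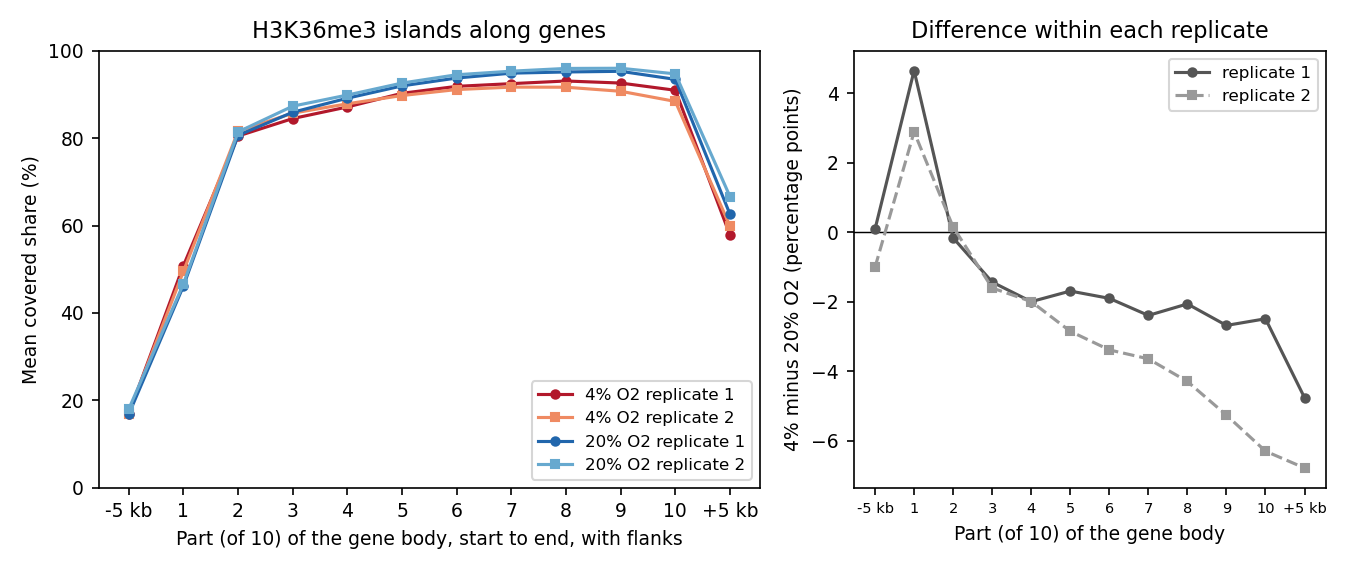
Left: mean share of each part covered by H3K36me3 islands (%, y axis) from 5 kb before the start through the 10 parts of the body to 5 kb past the end (x axis), in 3985 genes and 1 line per library. Right: 4% minus 20% O2 in percentage points for each replicate, which was 4.64 and 2.88 in the first part and -4.76 and -6.79 past the end.

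To compare signal between genes, the reads of each island were shared out to protein-coding gene bodies by overlap and tested in 2 ways with edgeR's quasi-likelihood test and Benjamini-Hochberg adjustment, with the replicate as a block. Reads per gene kb takes up both the extent of the islands and the signal within them. Density, in reads per covered kb scaled to 1000000 gene-body reads, averages that signal over the length covered in each library. It can thus still shift with the extent of the islands. For reads per gene kb, 0 of 8200 genes passed an adjusted p of 0.05 with 755 at an unadjusted p under 0.05, 0 passed without the block with 482 unadjusted, and DESeq2 with the block called 91 (1.11%) higher and 83 (1.01%) lower. For density, 377 of 7921 genes (4.76%) were higher at 4% O2 and 259 (3.27%) lower. The density calls rest on pairing within replicate, which leaves 1 residual degree of freedom. The test therefore draws on a spread shared over genes. A small p or SE given for 1 gene does not measure how far its own 2 replicates differed. Without the block 0 genes were higher and 1 lower (0.0126%, 624 unadjusted), and DESeq2 with the block called 85 (1.07%) higher and 31 (0.391%) lower, all of them among the calls above.

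The differences were small. The median log2 ratio of 4% over 20% O2 was 0.33 among the genes called higher and -0.33 among those called lower, against 0.01 over all genes tested. Only 19 of the higher and 3 of the lower genes passed 1.5-fold. In 84 of the 377 higher and 71 of the 259 lower genes, the own body made up under 0.5 of the touching islands' length. Reads are shared out evenly along an island, so the densities of such genes also reflect neighbouring DNA. Both 4% densities lay above both 20% densities in 332 of the 377 higher genes and below them in 238 of the 259 lower genes; over all genes tested 18.5% and 19.2% were separated in these directions. Across genes, the log2 density ratio of replicate 1 had a Pearson correlation of 0.38 with that of replicate 2 (Spearman 0.39, 7921 genes), and the ratio of reads per gene kb one of -0.01 (Spearman 0.27, 8200 genes). The 2 ratios share no library, and genes are not independent replicates.

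**Figure D2:**
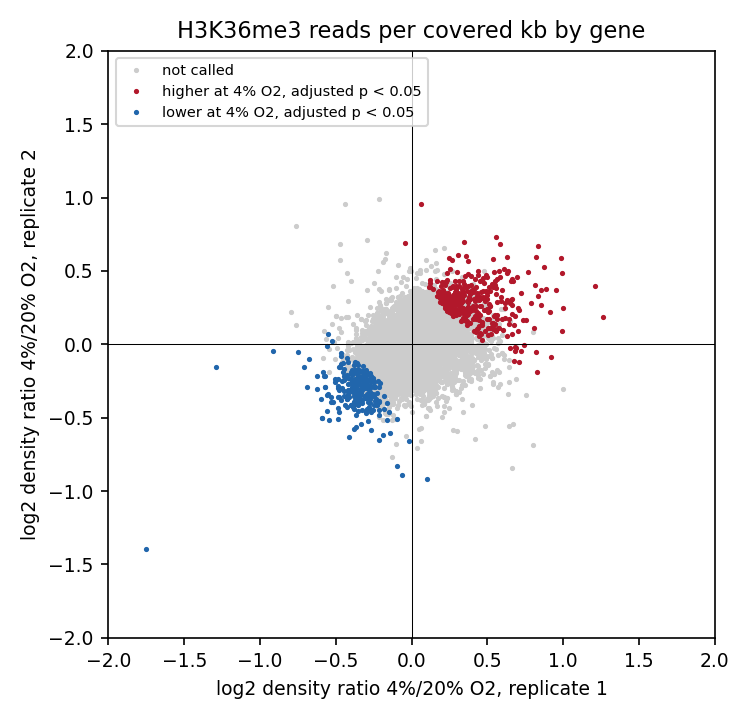
Each point is 1 of 7921 genes, with its log2 density ratio of 4% over 20% O2 in replicate 1 (x axis) and replicate 2 (y axis). Red marks the 377 genes called higher at 4% O2, blue the 259 called lower and grey the rest; most called genes lie in the quadrants where both replicates moved one way, and the correlation over all points was 0.38.

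Among genes called higher at 4% O2 that overlap no other gene, have separated values and make up at least 0.5 of the length of the islands that touch them, the 12 with the largest log2 ratios were, in order, Aldoc, Anxa2, Slc2a1, Sncb, Pdk1, Eno2, Bhlhe40, Cdkn1a, Sertad1, Arl4d, Ccng2 and Bmf. Aldoc, Slc2a1 and Eno2 belong to the glycolysis list, and Pdk1 and Bhlhe40 to the hypoxia list. Slc2a1, the glucose transporter GLUT1, had 4.03 and 3.10 scaled reads per covered kb at 4% O2, against 2.02 and 2.21 at 20% O2 (log2 ratio 0.75, SE 0.10, adjusted p = 7.04e-11 with the block and 0.585 without). Its islands covered 98.4% of the body in both 4% libraries, against 92.1% and 90.7% at 20% O2. Pdk1, which inhibits pyruvate dehydrogenase by phosphorylation, had 4.14 and 4.54 at 4% O2 and 2.35 and 3.01 at 20% O2 (log2 ratio 0.71, SE 0.09). Aldoc, the brain-type aldolase of glycolysis, had 4.22 and 2.84 at 4% O2 and 1.83 and 2.16 at 20% O2 (log2 ratio 0.88, SE 0.14). In Slc2a1, Pdk1 and Aldoc both 4% libraries lay above both 20% libraries, as the choice of the 12 required. The margin was wider in replicate 1 than in replicate 2, with log2 ratios of 0.996 and 0.486 for Slc2a1, 0.82 and 0.59 for Pdk1 and 1.21 and 0.394 for Aldoc. The SEs given above do not measure this gap between replicates.

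The windows around the starts of these 3 genes are shown beside that of Utp20, a gene called lower, so that both directions can be read. They are RefSeq windows of 250 bases before to 50 after the start in GRCm38.p6, 5′ to 3′ on the gene's strand, with every ACGTG or GCGTG and their complements CACGT and CACGC in capitals.
Slc2a1, chr4:119108495-119108794, plus strand: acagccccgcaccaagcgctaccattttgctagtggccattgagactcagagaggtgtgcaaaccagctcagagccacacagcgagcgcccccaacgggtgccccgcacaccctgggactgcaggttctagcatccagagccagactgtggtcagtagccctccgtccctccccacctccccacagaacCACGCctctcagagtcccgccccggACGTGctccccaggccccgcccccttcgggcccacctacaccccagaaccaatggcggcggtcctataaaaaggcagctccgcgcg
Pdk1, chr2:71872974-71873273, plus strand: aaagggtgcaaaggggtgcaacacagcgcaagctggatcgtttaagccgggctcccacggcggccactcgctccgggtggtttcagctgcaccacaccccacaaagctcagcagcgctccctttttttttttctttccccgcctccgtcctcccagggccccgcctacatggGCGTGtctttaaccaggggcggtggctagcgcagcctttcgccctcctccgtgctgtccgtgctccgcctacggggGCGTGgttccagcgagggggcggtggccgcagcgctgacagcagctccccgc
Aldoc, chr11:78322823-78323122, plus strand: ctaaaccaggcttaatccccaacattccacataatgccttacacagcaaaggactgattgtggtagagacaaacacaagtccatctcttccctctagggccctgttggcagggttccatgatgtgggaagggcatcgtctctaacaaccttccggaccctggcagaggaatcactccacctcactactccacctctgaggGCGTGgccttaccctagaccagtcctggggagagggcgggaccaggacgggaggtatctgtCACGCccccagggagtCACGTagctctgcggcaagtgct
Utp20, chr10:88826765-88827064, minus strand: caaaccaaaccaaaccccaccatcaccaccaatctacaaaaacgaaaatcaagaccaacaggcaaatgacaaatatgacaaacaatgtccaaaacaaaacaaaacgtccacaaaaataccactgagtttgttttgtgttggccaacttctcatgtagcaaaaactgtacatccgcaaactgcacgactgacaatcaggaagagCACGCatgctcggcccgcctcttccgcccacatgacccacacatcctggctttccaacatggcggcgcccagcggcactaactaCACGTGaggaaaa
The windows hold 2, 2, 3 and 3 matches. ACGTG is also part of CACGTG, the E-box bound by MYC and other factors, as at the end of the Utp20 window, where both strands match. Of the genes called higher, 198 of 306 with a window (64.7%) held at least 1 match, against 149 of 210 called lower (71.0%), 66.9% of all genes tested and 49.2% of all 17492 protein-coding genes with a window, so these letters were no more common at the starts of genes called higher than among the genes tested. A match is a string of letters and not a bound site.

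The other genes of the 12 have varied roles. Anxa2, a membrane-binding annexin, had 4.13 and 3.34 scaled reads per covered kb at 4% O2 and 2.09 and 2.22 at 20% O2 (log2 ratio 0.80, SE 0.09, adjusted p = 6.93e-14). Sncb, beta-synuclein, had 3.92 and 3.34 at 4% O2 and 2.14 and 2.32 at 20% O2. Eno2, the neuronal enolase, had 5.96 and 4.95 at 4% O2, against 3.08 and 3.83 at 20% O2. Each of these 3 was separated by oxygen in all 4 pairs of libraries, which the choice of the 12 required.

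Bhlhe40, a transcriptional repressor that responds to hypoxia, had 7.28 and 4.90 at 4% O2, against 3.93 and 3.76 at 20% O2. Cdkn1a, the cell cycle inhibitor p21, had 4.21 and 3.63 at 4% O2 and 2.47 and 2.58 at 20% O2, over a covered share of 50.5% to 52.6% in every library. Ccng2, a cyclin linked to arrest, gave the closest replicates, with 4.75 and 4.62 at 4% O2 and 3.07 and 3.06 at 20% O2. Sertad1, Arl4d and Bmf, a BH3-only promoter of cell death, completed the 12, with log2 ratios of 0.64, 0.63 and 0.61. Of these Sertad1 was nearly level in replicate 2, with 2.77 at 4% O2 and 2.60 at 20% O2.

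Chosen in the same way, the 12 genes called lower at 4% O2 began with 2210016F16Rik, Utp20, Pus7l, Ssbp1, Tmem184c, Trip13, Exo1, Cdca7 and Hus1, in that order, and included Pla2g4c and Kif14. Utp20, a component of the machinery that processes ribosomal RNA, had 3.49 and 3.30 scaled reads per covered kb at 4% O2, against 5.25 and 4.68 at 20% O2 (log2 ratio -0.55, SE 0.08, adjusted p = 2.52e-08 with the block and 0.585 without). Its 80 kb body was covered over 98.5% to 99.5% in all libraries, so both oxygen levels were read over nearly the same DNA. Exo1, an exonuclease of mismatch repair and break resection, had 4.27 and 3.70 at 4% O2 and 5.56 and 5.52 at 20% O2. Hus1, part of the checkpoint clamp at damaged DNA, had 3.32 and 3.12 at 4% O2 and 4.27 and 4.61 at 20% O2. Both fell in either replicate, and their 4% and 20% values did not overlap, which the choice of the 12 required.

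Rad51ap1, a factor of homologous recombination, had 2.83 in both 4% libraries, against 4.05 and 3.71 at 20% O2. Trip13, an ATPase of the mitotic checkpoint, had 3.06 and 3.10 at 4% O2 and 4.64 and 4.01 at 20% O2. Ssbp1, the single-strand binding protein of mitochondrial DNA, had 3.67 and 4.12 at 4% O2 and 5.93 and 5.04 at 20% O2. Cdca7, a chromatin factor of dividing cells, Kif14, a mitotic kinesin, Pus7l, Tmem184c and Pla2g4c made up the rest, with log2 ratios between -0.51 and -0.45. Kif14 had 2.56 and 2.97 at 4% O2 and 3.77 in both 20% libraries.

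The largest fall was that of 2210016F16Rik, with 2.03 and 2.06 scaled reads per covered kb at 4% O2, against 6.84 and 5.42 at 20% O2 (log2 ratio -1.58, SE 0.13, adjusted p = 1.33e-27), and it was the 1 gene called without the block (adjusted p = 0.0269). Its 20% densities are equal to those of its neighbour Hnrnpk, since in both 20% libraries a single island spans the 2 genes and its reads are shared out evenly. At 4% O2 Hnrnpk had 8.42 and 6.63, and islands covered 80.2% and 84.1% of 2210016F16Rik, against 100% in both 20% libraries. The value therefore turns on where an island was split, and the density of 2210016F16Rik at 20% O2 was not measured apart from that of Hnrnpk.

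**Figure D3:**
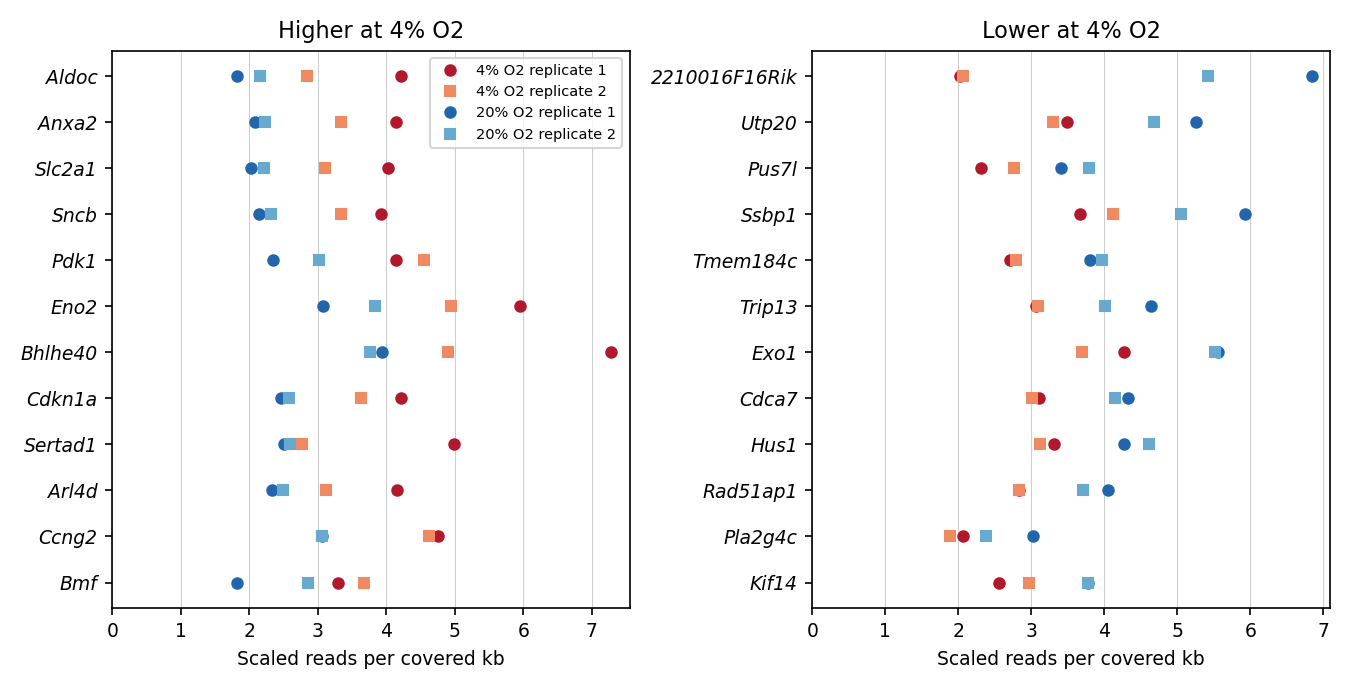
H3K36me3 density (scaled reads per covered kb, x axis) of the 12 named genes called higher (left) and the 12 called lower (right) at 4% O2, 1 point per library. In every gene both 4% points lie on one side of both 20% points, which the choice of these genes required. The gene 2210016F16Rik stands apart with 2.03 and 2.06 at 4% O2 against 6.84 and 5.42 at 20% O2.

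Because a longer island can dilute a density, the reads were also tested over genes with at least 0.9 of the body covered in every library, a minimum that removes genes that lost their cover. Of 2956 such genes, 139 (4.7%) were higher and 124 (4.19%) lower at 4% O2 by edgeR with the block, and 0 without it (242 unadjusted). Only 106 of the 377 higher and 153 of the 259 lower density calls had such cover, and both fits use the same reads. Of the 139 higher genes, 93 (66.9% of them, 24.7% of the density calls) were also called for density, as were 111 of the 124 lower (89.5% and 42.9%). Slc2a1 was among them with a log2 ratio of 0.87 (adjusted p = 0.00924), as were Utp20 with -0.54 (0.00542) and Exo1 with -0.50 (0.00932).

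Genes whose covered share crossed a limit between the oxygen levels were few. With at least 0.25 of the body covered as the limit, 8385 of 21887 genes were marked in all 4 libraries. In both 4% libraries alone 30 (0.137%) were marked and in both 20% libraries alone 183 (0.836%), against 78 in both replicate 1 libraries alone and 161 in both replicate 2 libraries alone. The smallest exact permutation p for 1 gene is 0.33, so none of these was tested. A gap of at least 0.2 between every 4% and every 20% library was found for 47 genes (0.215%) with more cover at 4% O2 and 257 (1.17%) with less. By the smallest gap between a 4% and a 20% library, the genes with the most cover at 4% O2 were Ctla2a, Gpr3, Eef1akmt3, Mrgprf, Cdkn2d and Sdc3. Gpr3, a receptor coupled to cyclic AMP in neurons, was covered over 62.6% and 64.5% at 4% O2 and 0% in both 20% libraries. Cdkn2d, the cell cycle inhibitor p19, was covered over 58.8% and 52.0% at 4% O2 and 0% in both 20% libraries. Its own body made up 46.8% of the length of the islands that touch it. Sdc3, a neural syndecan of 34 kb, was covered over 73.2% and 64.3% at 4% O2, against 13.0% and 24.6% at 20% O2.

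The 6 genes with the widest gap in cover the other way were Zrsr1, Emid1, Gpd1, Pla2g4b, Alad and Otx1, all with 0% in both 4% libraries. Gpd1, the cytosolic glycerol-3-phosphate dehydrogenase that carries reducing equivalents out of glycolysis, was covered over 89.0% and 94.4% at 20% O2. Alad, an enzyme of haem synthesis, was covered over 85.3% and 91.0% at 20% O2. Otx1, a homeobox factor of the forebrain, was covered over 81.8% in both 20% libraries. Zrsr1, Emid1, Pla2g4b and Eef1akmt3 overlap another protein-coding gene, and their islands cannot be assigned to either. A share of 0% means that no island was called, and the reads outside islands were not analysed here.

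**Figure D4:**
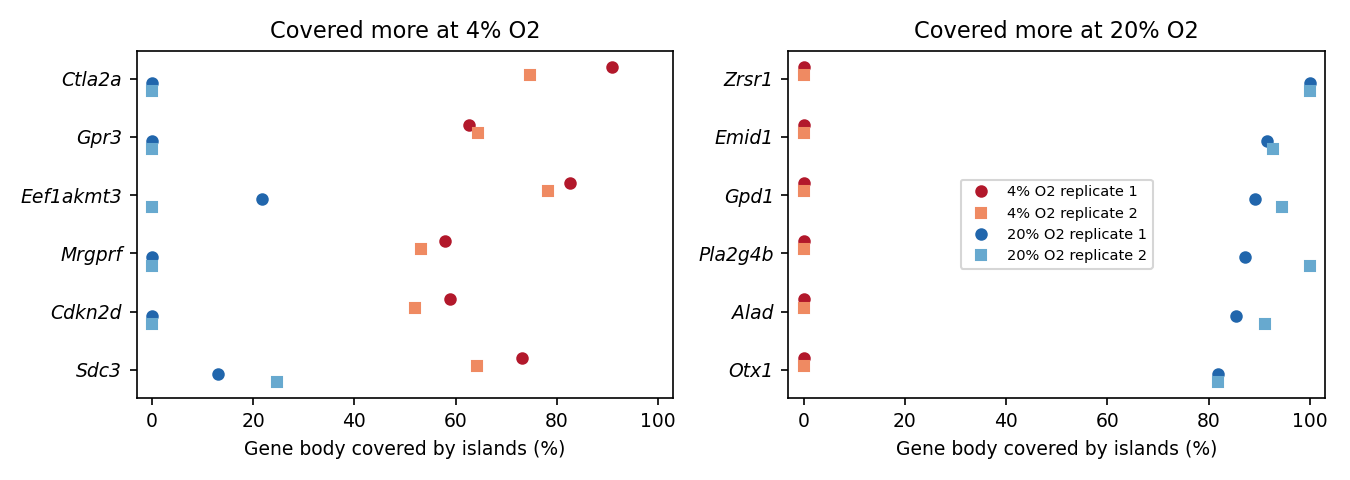
Share of the gene body covered by H3K36me3 islands (%, x axis) in each library for the 6 genes with the widest gap in either direction. The right panel has both 4% libraries at 0% and both 20% libraries above 81% for all 6 genes, the left panel 4% values of 52.0% to 90.9%.

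Among gene lists, hypoxia response genes had the highest median density ratio. Of 46 members 31 could be tested, and 16 were higher and 0 lower, where 4.76% and 3.27% of all genes were called. The median log2 ratio was 0.28 (0.36 in replicate 1 and 0.27 in replicate 2), against 0.01 over all genes tested. DESeq2 with the block called 7 of them, and 0 passed in edgeR without the block. Pdk1 and Bhlhe40 are given above. Plod2, a lysyl hydroxylase of collagen, had 4.19 and 3.92 scaled reads per covered kb at 4% O2 and 2.71 and 2.81 at 20% O2. Egln3, an oxygen-sensing prolyl hydroxylase that is itself a target of the hypoxia-inducible factors, had 5.02 and 4.87 at 4% O2 and 3.16 and 3.61 at 20% O2.

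Islands also covered more of Egln3, with 93.3% and 87.7% at 4% O2 against 29.8% and 64.4% at 20% O2. Bnip3l, a receptor for the removal of mitochondria, rose in density by a log2 ratio of 0.49, and Fam162a, P4ha2 and Ero1a by 0.46, 0.45 and 0.39. Vegfa, the vascular growth factor, had 6.02 and 4.66 at 4% O2 and 4.58 and 4.17 at 20% O2, which did not pass (adjusted p = 0.0533). Hif1a, which encodes the oxygen-regulated subunit of the factor, had 5.42 and 4.52 at 4% O2 and 5.78 and 4.11 at 20% O2 (log2 ratio 0.02), with overlapping groups. Of the 15 members not tested, 9 had no covered base in any library, Epas1, Epo and Car9 among them.

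Of 26 genes of glycolysis and glucose uptake 22 were tested, of which 9 were higher and 0 lower, against 4.76% and 3.27% of all genes tested. Their median log2 ratio was 0.26 (0.38 in replicate 1 and 0.18 in replicate 2), and DESeq2 with the block called 2. Hk2, the inducible hexokinase, had 5.51 and 5.17 scaled reads per covered kb at 4% O2 and 3.35 and 4.07 at 20% O2. Pygl, which breaks down glycogen, Hk1, Pgm1, Gys1 and Pkm were also called, at log2 ratios between 0.31 and 0.47. Gapdh, Ldha and Pgk1 did not pass, with log2 ratios of 0.25, 0.24 and 0.15. Pfkm, the muscle phosphofructokinase, had the lowest, -0.18, which did not pass either (adjusted p = 0.303).

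Immediate early and MAPK feedback genes, whose transcripts respond to growth signals within minutes, had a median of 0.24, with 5 of 16 higher and 0 lower, and 0 called by DESeq2 with the block. For this and the next lists, the shares over all genes tested were 4.76% higher and 3.27% lower. Dusp1, a phosphatase that switches off MAP kinases, had 4.49 and 4.45 at 4% O2 and 3.32 and 3.15 at 20% O2. Dusp6 was called with 7.33 and 3.53 at 4% O2 and 4.56 and 3.64 at 20% O2, where replicate 2 showed no gain. Neuronal and synaptic genes had 4 of 26 higher and 0 lower (median 0.15). Among them Syt1, the calcium sensor of synaptic vesicles, had 4.73 and 4.14 at 4% O2 and 3.54 and 3.04 at 20% O2, and Mapt, the microtubule protein tau, 5.47 and 4.46 at 4% O2 and 3.45 and 3.87 at 20% O2. The noradrenergic identity list had 4 of 18 higher and 0 lower (median 0.09), Meis2, Klf7, Lmo1 and Slc18a2. Slc18a2 was covered over 19.4% and 76.3% at 4% O2, against 89.4% and 74.0% at 20% O2, and its density ratio of 0.39 stood beside -0.68 in reads per gene kb, which did not pass (unadjusted p = 0.312). Of the touching islands' length, the own body made up 30.5% at Slc18a2, 44.9% at Mapt and 35.5% at Dusp6. In the circadian list 2 of 14 were higher and 0 lower, Bhlhe40 and Per1.

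Growth-related lists were mixed or near the level of all genes tested, of which 4.76% were called higher and 3.27% lower. Cell cycle and DNA replication genes had 4 of 35 higher and 3 lower, with a median of -0.06. The higher members were Cdkn1a, Cdkn1b, Ccnd1 and Pold1, of which Cdkn1b, like Cdkn1a, encodes an inhibitor. The lower ones were Pole, Mcm4 and Mcm3, which encode parts of the replication machinery. Cdkn1b had 5.47 and 4.10 at 4% O2 and 4.30 and 2.53 at 20% O2, so its groups overlapped. Ccnd1 overlaps another protein-coding gene. Pold1 was less covered at 4% O2, with 52.3% and 23.6% against 83.4% and 91.2% at 20% O2, and its log2 ratio of 0.40 in density stood beside -0.89 in reads per gene kb, which did not pass (unadjusted p = 0.0735). The respiratory chain list had 1 of 35 higher, Lonp1, which encodes a mitochondrial protease, and 2 lower, Ndufa10 and Cyc1 (median -0.06). Cyc1 had a log2 ratio of 0.00013 in reads per gene kb, and its own body made up 26.8% of the touching islands' length. Cholesterol synthesis had 1 of 21 higher, Insig1, and 0 lower (median 0.15), and serine synthesis with the integrated stress response 3 of 24 higher and 1 lower (median 0.04). The unfolded protein response had 0 of 22 higher and 1 lower, Sel1l, and elongation and splicing factors 1 of 29 higher, Hnrnpk, and 0 lower. Hnrnpk lies in the same 20% islands as 2210016F16Rik, and its 4% and 20% densities overlapped. Of 23 housekeeping genes 0 passed in edgeR's test and 0 in DESeq2, with 1 higher and 2 lower at an unadjusted p under 0.05 in edgeR. DESeq2 with the block called 1 neuronal and 2 noradrenergic genes higher, and 0 in the circadian, cell cycle, respiratory chain, cholesterol, serine and stress, unfolded protein, and elongation and splicing lists. No list had a call without the block. For reads per gene kb 0 members of any list passed with edgeR, and 28 did with DESeq2 and the block.

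**Figure D5:**
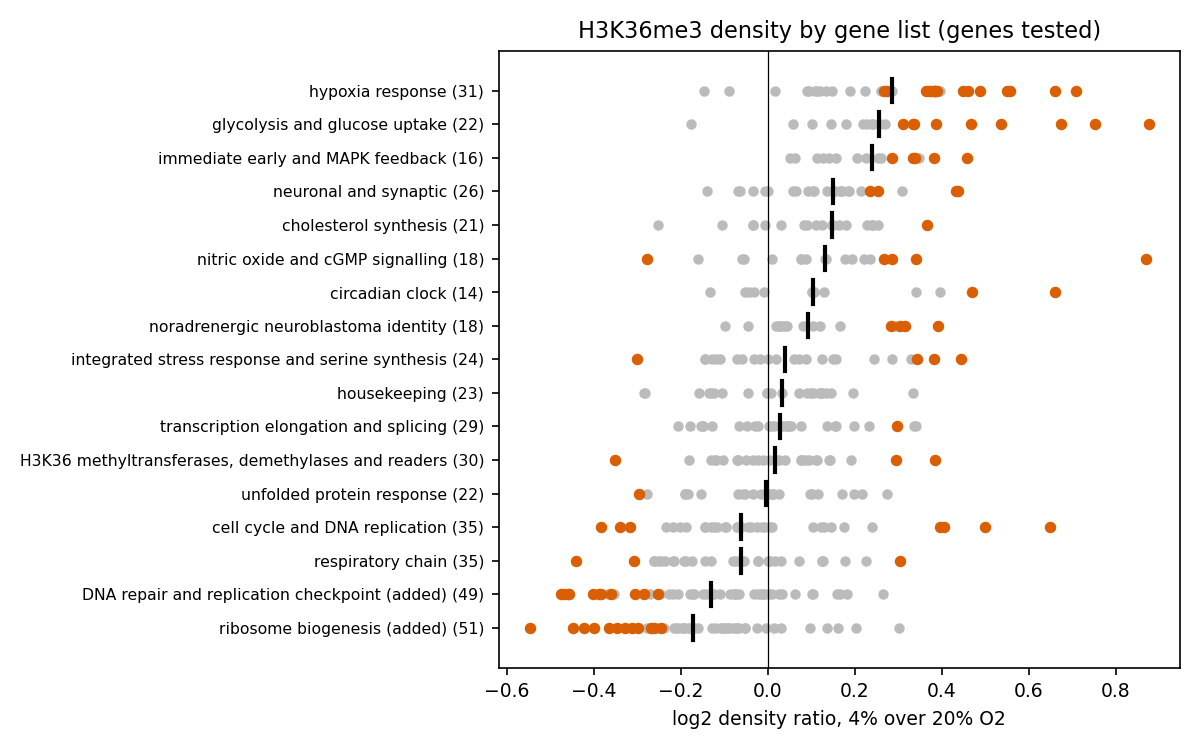
Log2 density ratio of 4% over 20% O2 (x axis) of each gene tested, by list, with orange points for genes at an adjusted p under 0.05, grey points for the others and a bar at the median; the number tested is in parentheses. Hypoxia response has 16 orange points to the right of 0 and 0 to the left; the 2 lists marked as added were chosen after their members' values had been seen.

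Nos1, the gene named in the label of the line, was covered over 98.9% and 96.0% of its 92 kb body at 4% O2 and 95.8% and 100% at 20% O2. Its density was 3.62 and 3.88 scaled reads per covered kb at 4% O2, against 2.51 and 3.5 at 20% O2 (log2 ratio 0.34, SE 0.08, adjusted p = 0.002 with the block and 0.657 without). The groups barely separated, and the ratio was 0.53 in replicate 1 and 0.15 in replicate 2. Of the nitric oxide and cGMP list 4 of 18 genes were higher and 1 lower, against 4.76% and 3.27% of all genes tested, and DESeq2 with the block called 0. The higher ones were Nos1, Ddah2, which breaks down an endogenous inhibitor of nitric oxide synthase, Gch1, which makes the cofactor tetrahydrobiopterin, and Pde9a, which breaks down cGMP. Ddah2 had 5.03 and 2.79 at 4% O2 and 2.09 and 2.44 at 20% O2, and its own body made up only 39.7% of the length of the islands that touch it.

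The genes that write, erase and read this mark had a median density ratio near that of all genes tested. Of 36, 30 were tested, and 2 were higher and 1 lower, against 4.76% and 3.27% of all genes tested. The median log2 ratio was 0.02, with a range from -0.35 to 0.38. Setd2, the trimethylating enzyme, had 6.51 and 6.38 scaled reads per covered kb at 4% O2 and 6.67 and 5.57 at 20% O2 (log2 ratio 0.08, adjusted p = 0.618). Kdm4b, an H3K36 and H3K9 demethylase, had 3.51 and 3.43 at 4% O2 and 2.40 and 2.98 at 20% O2 (log2 ratio 0.38, adjusted p = 0.000593), while Kdm4a and Kdm4c gave -0.07 and 0.11 and did not pass. Islands covered 97.4% and 44.7% of Kdm4b at 4% O2, against 75.8% and 74.3% at 20% O2. Its reads per gene kb overlapped, with 3.39 and 1.52 at 4% O2 and 1.81 and 2.20 at 20% O2 (log2 ratio 0.19, unadjusted p = 0.691 by edgeR with the block). Kdm2a, a demethylase of the dimethyl state, had 3.49 in both 4% libraries, against 3.11 and 2.59 at 20% O2. Riox2 was the lower one, with 2.40 and 2.34 at 4% O2 and 2.90 and 3.18 at 20% O2, and like Kdm2a it overlaps another gene. Dnmt3b, a DNA methyltransferase that binds the mark, was covered over 43.3% and 20.9% at 4% O2, against 62.1% and 88.5% at 20% O2, without a call for density (log2 ratio -0.12, adjusted p = 0.570) or for reads per gene kb (log2 ratio -1.42, unadjusted p = 0.0651).

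Other marks were immunoprecipitated separately under the same conditions. Peaks of H3K27ac, which marks active promoters and enhancers, covered more of the gene body and 2000 bp on either side at 4% O2 in both replicates in 233 of the 377 genes called higher (61.8%) and in 44 of the 259 called lower (17.0%), against 40.3% of all genes tested. They covered less in both in 6.90% and 30.1%, against 16.4%. At Anxa2 H3K27ac covered 8663 and 7865 bp at 4% O2, against 3952 and 4074 bp at 20% O2. At Pdk1 it covered 2082 and 2809 bp at 4% O2, against 835 and 765 bp at 20% O2. In both genes the 4% values were above the 20% values in each replicate.

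H3K4me3, the promoter mark, was longer in both replicates in 19.9% of the genes called higher and 1.54% of those called lower (6.55% of all tested), and shorter in both in 9.55% and 44.4% (28.6%). The Polycomb mark H3K27me3 was longer in both in 2 of the 377 genes called higher and 23 of the 259 called lower, against 3.81% of all tested, and over the body alone in 0 of either. Genes called lower carried the mark more often at either oxygen level, 22.8% of them against 9.06% of all tested in 4% replicate 1 and 16.2% against 5.02% in 20% replicate 1, and the part of this in the counts was not tested. It was shorter in both in 0 and 1 of these genes, against 0.0884% of all tested. These libraries share flow cells with the H3K36me3 libraries of the same replicate and oxygen level, and the part of the flow cell in replicate 1 was not tested. At Utp20, where H3K36me3 density fell, H3K27ac covered 215 and 200 bp at 4% O2 and 480 and 0 bp at 20% O2, so the replicates went opposite ways.

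The genes called higher and lower also differed in where along the body islands lay, although density and cover come from the same islands and are not independent. Among the 216 genes called higher that entered the profile, the first part was covered over a mean of 59.0% ± 1.24 at 4% O2 and 52.6% ± 0.414 at 20% O2 (SD, n = 2 each), and 91 were more covered there in both replicates and 6 less. Their islands began at a median of 1135.5 and 1461 bp from the start at 4% O2, against 1866.5 and 1855 bp at 20% O2. Among the 151 genes called lower, 24 were more and 18 less covered in the first part in both replicates. Past the end the order was turned round. The 5 kb there were covered over 55.7% ± 1.51 at 4% O2 and 67.6% ± 1.42 at 20% O2 in the genes called lower, and over 61.5% ± 2.04 at 4% O2 and 60.9% ± 4.24 at 20% O2 in the genes called higher. Within replicates the difference in genes called lower was -11.9 and -11.8 percentage points, against -4.76 and -6.79 over all 3985 genes.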

How the data were processed

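Per the labels, chromatin of N1E115 cells was immunoprecipitated with antibodies to 5 histone marks. Per the submitters' processing notes, reads were aligned to mm10 with BWA and treated with Picard, and islands (H3K36me3, H3K27me3) were called with SICER and peaks with MACS2; versions are not given in the sources used here. Per the file headers, each library has its own islands. The last column of the authors' island files has no name and holds whole numbers, which were taken as counts of ChIP reads, not normalized. The deposited peak lists carry a −log10 value per peak, which was not used. The interval lists of the second H3K27ac and H3K4me3 libraries were listed under the first and assigned by peak names and scores, which matched those of the second library's summits in 100% of entries.

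Gene bodies came from RefSeq (GRCm38.p6, the assembly of mm10; 21887 protein-coding genes, 17492 with a strand). Island counts were shared out to bodies by overlap length and rounded. Genes with a mean covered share of at least 0.5 and a mean of at least 50 reads were tested with edgeR 4.0.16 (TMM, quasi-likelihood; R 4.3.3), and DESeq2 1.42.0 was the alternative; for density the log of the covered length was an offset, which needs cover in every library. The fits were run on simulated counts with known fold changes. A replicate effect shared by both oxygen levels was built in, so these cannot show whether the pairing holds here. Replicates were paired by title and input number; after the group means were removed, the deviations of same-numbered libraries had a correlation of 0.0149 in reads per gene kb and 0.458 in density. Whole-library values were compared by exact permutation.

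The members and the 19 gene lists (522 entries, all matched) were chosen with earlier results of these data known. Named genes were Nos1, the 12 per direction with the largest called log2 ratio, separated values, at least 0.5 of the touching islands' length and no overlap with another gene, the 6 per direction with the widest gap in covered share over bodies of at least 2000 bp, and up to 4 called per list and direction. The rule was meant for reads per gene kb and was applied to density after the former had called no gene; some further list members were named after their values were seen, and a few genes are not reported here. Counts cover reads in islands only, and enrichment outside islands was not analysed here.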

Additional observations from a re-analysis of the deposited data

How the results depend on the processing

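With the replicate block as the main design, leaving it out kept 0 calls for reads per gene kb and changed 636 density calls to 1; over genes with at least 0.9 of the body covered, where a density fit with the block called 446 genes, it left 0 (0 also for reads per gene kb). For reads per gene kb, the count was 0 with DESeq2 size factors, scaling to all reads in islands, other limits on cover, without overlapping genes, without the islands with the fewest reads per kb and with equal numbers of islands. It was 174 with DESeq2 and the block, 119 with DESeq2 without the block, 263 over genes with at least 0.9 of the body covered, and 0 to 271 without each library in turn (4 higher and 267 lower without 4% replicate 1, 4 and 75 without 4% replicate 2). List members called in it numbered 28 with DESeq2 and 0 to 14 without each library. Density calls numbered 532 to 699 with other size factors, islands or genes, 116 with DESeq2, 2 without the covered length as offset, and 1 to 14 without each library, where no block could be fitted. Genes marked at 4% O2 alone numbered 47 at a limit of 0.5 and 88 to 138 without each library, and those at 20% O2 alone 251 to 645. The covered length at 4% over 20% O2 was 0.952 with equal numbers of islands (0.944 with all). The correlation of the 2 replicates' ratios was 0.38 in density. The H3K27me3 counts of 2 and 23 genes became 0 and 0 over the body alone. The differences along the gene kept their direction in both other island sets, at 3.98 and 4.09 points in the first part, -4.71 and -6.00 in the last and -5.74 and -6.31 past the end. Of 848 values for 69 named genes, 474 no longer passed and 4 reversed: without the offset Cyc1 had 0.00026, Pold1 -0.87 and Slc18a2 -0.67, and Dusp6 ranged from -0.23 without 4% replicate 1 to 0.83 without 4% replicate 2; none of these 4 passed. The causes were not tested. DESeq2 without the block, the density alternatives other than the block and the offset, and the settings along the gene were chosen after seeing the data.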

Other observations

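Groups of genes that recur among the falls were gathered into 2 lists after the values had been seen, so their counts are descriptions and carry no test. Over all genes tested, 4.76% were called higher and 3.27% lower. Of 51 ribosome biogenesis genes measured for density, 0 were higher at 4% O2 and 12 lower, with a median log2 ratio of -0.17 (-0.21 in replicate 1 and -0.13 in replicate 2), and DESeq2 with the block called 4 lower. They include the RNA polymerase I subunit genes Polr1a and Polr1b and processome genes such as Wdr75, with 5.28 and 5.46 scaled reads per covered kb at 4% O2 and 7.31 and 7.10 at 20% O2. Heatr1 had 2.56 and 2.16 at 4% O2 and 3.70 and 2.77 at 20% O2. Of 49 genes of DNA repair and the replication checkpoint, 0 were higher and 11 lower (median -0.13), among them the Fanconi anaemia genes Fancd2, Fanci, Fanca and Fancm. Fancd2 had 3.51 and 3.21 at 4% O2 and 4.49 and 4.28 at 20% O2.

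The calls were unevenly spread over gene length. Of 135 genes over 200 kb, 32 (23.7%) were higher at 4% O2 and 1 lower, with a median log2 density ratio of 0.16 (0.13 in replicate 1 and 0.16 in replicate 2). Between 100 and 200 kb 11.2% were higher and 1.57% lower, and between 10 and 20 kb 2.23% and 2.79%. The trend was not steady, since genes up to 5 kb had 3.49% higher and 0.558% lower and those of 5 to 10 kb 2.94% and 1.19%. Genes called higher had a median length of 44.3 kb and those called lower 34.1 kb, against 22.7 kb over all genes tested. Longer genes hold more reads, and what part that has in the share of calls was not tested.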
